A study of Mus musculus with 16 samples.

Results

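The solute carrier (SLC) genes described here were the 138 genes whose symbol begins with Slc and a number and whose level averaged at least 2 CPM (counts scaled to the total of their library) over 12 RNA-seq libraries of mouse CD8+ T cells. Of the 34573 gene symbols counted, 358 were Slc symbols. The families of amino acid exchangers, glucose, lactate, nucleoside and iron carriers (Slc1, Slc2, Slc3, Slc7, Slc11, Slc16, Slc29, Slc38, Slc40 and Slc43) were set aside, which left 285 symbols, 32 of them with no count in any library. The members were chosen by a measured value, their mean CPM in these same libraries, so the levels themselves are given as a description. Just inside the threshold stood Slc4a1 with a mean of 2.79 CPM, Slc27a3 with 3.09 CPM and Slc52a3 with 3.31 CPM. Just outside stood Slc39a7 with 1.89 CPM, Slc35e4 with 1.88 CPM and Slc12a8 with 1.86 CPM. All 138 members were tested in the fit over all libraries, and 11 of them had a mean under 2 CPM in at least 1 state. Slc4a1 was the 1 member whose mean fell under 2 CPM when its highest state was set aside. Slc4a1ap (kanadaptin) and Slc9a3r1 (the scaffold NHERF1) carry such a symbol but are not transporters.

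The cells came from C57BL/6 mice. Naive CD8+ T cells were purified from spleen cell suspensions with an isolation kit for such cells, then activated in culture with antibodies to CD3e and CD28 at 10 µg/ml each, with IL-2 at 300 U/ml added overnight. Tn were naive cells at day 0, sorted as CD8+, CD44-, CD62L+. Teff1 were sorted at day 2 as CD8+, PD-1+, TIM-3-. At day 5 the culture was sorted by TIM-3, into Tex (CD8+, PD-1+, TIM-3+) and Teff2 (CD8+, PD-1+, TIM-3-). Each state had 3 libraries, made from 0.2 M cells each. The state names are those of the submitters: Tex cells here came from 5 days of culture and not from a chronic infection or a tumour. Nothing in the labels says that the replicates were separate mice or cultures, so p-values measure the spread between these libraries, which may be technical.

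SLC proteins carry ions, metals, vitamins, nucleotides, sugars and metabolites across the cell surface and across the membranes of mitochondria, Golgi, lysosomes and vesicles. A naive T cell is small and quiescent, and an activated T cell enlarges and divides, which is known to raise its demand for imported nutrients, for mitochondrial exchange and for control of cell volume and pH. The amino acid and glucose carriers are the best-studied SLC proteins of T cell activation; the families described here are less often examined.

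Libraries held 14.7 to 21.2 M counts, and a floor of 3 counts stood for 0.143 to 0.204 CPM. Within a state the libraries correlated at 0.955 to 0.989 (Pearson's r across genes, which are not independent replicates). Summed markers of CD8 T cells stood at 2363 to 2643 CPM in the activated states and 3215 to 4758 CPM in Tn. Transcripts of other spleen cells were more abundant in Tn: the 6 B cell markers summed to 5.56 to 10.1 CPM in activated libraries and to 432, 36.6 and 842 CPM in Tn replicates 1, 2 and 3. The 7 macrophage and monocyte markers summed to 4.28 to 11.6 CPM in activated libraries and 69.9 to 238 CPM in Tn, and the 5 NK cell markers to 0.57 to 9.34 CPM in activated libraries and 2.86 to 114 CPM in Tn. Platelet markers summed to 1.24 to 6.7 CPM in activated libraries and 11.6 to 50.8 CPM in Tn, and neutrophil markers to 0 to 0.129 CPM in activated libraries and 1.23 to 4.57 CPM in Tn. Pax5 of the B cell list had 0 counts in both day 5 states. The part of other cells in the differences from Tn was not tested beyond fits with Tn replicate 2 as the single naive library. In these bulk libraries, fewer cells of a type and less RNA per cell cannot be told apart, and because CPM is relative to each library's total, values of different genes are not compared with each other.

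Between Teff1 and Tn, SLC genes changed in both directions. In Teff1, 36 of the 138 members were higher (26.1%) and 38 were lower (27.5%) than in Tn at an adjusted p under 0.05 (quasi-likelihood test of edgeR, adjusted by Benjamini-Hochberg over 14332 genes), and 64 did not pass. These counts were 30 higher and 47 lower with upper-quartile scaling, and 37 higher and 30 lower with no filter on low counts. Over all genes tested, 24.5% were called higher and 24.5% lower, so the share of SLC genes called was close to the share of all genes, and the median log2 fold change was -0.08 for the members and -0.06 for all genes. At a change of at least 2-fold in size, 21 members were higher and 25 lower. The shares of all genes at that size, with upper-quartile scaling or with no filter are not given here, so these counts describe the members only. All Teff1 libraries lay above all Tn libraries for 42 members (30.4%), against 29.6% of all genes, and below them for 51 members (37%), against 31.9% of all genes. Without Teff1 replicate 3, the lower calls numbered 24.

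Some of the 74 calls depended on the libraries kept. Leaving out 1 Teff1 or Tn library at a time, 25 members lost the call in at least 1 of 6 fits, and their direction stayed the same in each: Slc4a11, Slc9a3r1, Slc9a7, Slc9a9, Slc15a2, Slc17a5, Slc20a1, Slc25a1, Slc25a3, Slc25a15, Slc25a32, Slc25a38, Slc25a44, Slc26a6, Slc27a4, Slc30a1, Slc30a6, Slc31a2, Slc35a4, Slc35a5, Slc35b2, Slc35d1, Slc35e1, Slc35e3 and Slc37a1. Tn replicate 2 held the fewest B cell transcripts of the naive libraries, though its erythroid markers still summed to 148 CPM and its macrophage and monocyte markers to 69.9 CPM. With it as the only naive library, a fit in which that library is assumed to vary like those of the other states, 17 members were called higher, 16 of them among the 36, and 14 lower, all among the 38. Lost in that fit were the same 25 and another 19: Slc6a6, Slc12a2, Slc12a9, Slc19a2, Slc22a17, Slc24a6, Slc25a4, Slc25a5, Slc26a10, Slc33a1, Slc35d2, Slc36a4, Slc37a2, Slc39a4, Slc39a6, Slc39a8, Slc44a2, Slc46a3 and Slc50a1. The log2 fold changes of the 74 kept their sign there, with a median ratio of 0.992 to those with all libraries (0.434 to 1.75). They moved most in Slc4a11 (2.92 with Tn replicate 2 alone and 1.67 with all libraries), Slc9a7 (-1.15 and -2.39), Slc22a15 (2.78 and 1.73) and Slc26a10 (-0.76 and -1.75).

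**Figure D1:**
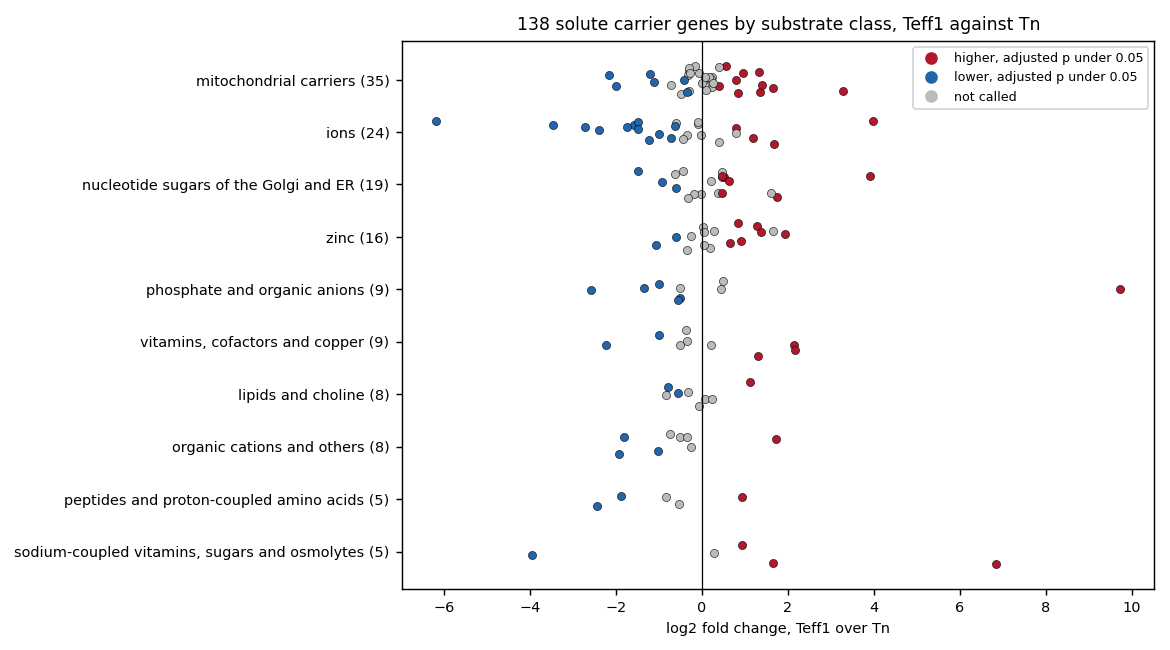
Log2 fold change of each of the 138 members in Teff1 over Tn (x axis), grouped by substrate class on the y axis with the number of members in brackets. Each point is 1 gene, red where called higher in Teff1, blue where called lower and grey where not called; the ions class holds 12 blue and 4 red points and the zinc class 6 red and 2 blue. The point at the far right is Slc17a6, whose naive libraries were all at 0, so its fitted value is no measure of size.

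Promoters of 4 of these genes are printed here because they share the 6-base palindrome CACGTG, the E-box that Myc and the related TFE and USF proteins are known to bind, while the genes moved in opposite directions: Slc25a13 and Slc39a8 were higher in Teff1 than in Tn, and Slc12a7 and Slc36a1 were lower. The windows run from 250 bases before to 50 bases after an annotated start (RefSeq, build GRCm38.p6), 5′ to 3′ on the gene's strand, with the motif in capitals. They lie at chr6:6217124-6217423 (minus strand), chr3:135825407-135825706 (plus), chr13:73763410-73763709 (plus) and chr11:55204090-55204389 (plus). Slc39a8 and Slc12a7 have several annotated starts in that table, and their windows lie inside the annotated span of the gene.
Slc25a13: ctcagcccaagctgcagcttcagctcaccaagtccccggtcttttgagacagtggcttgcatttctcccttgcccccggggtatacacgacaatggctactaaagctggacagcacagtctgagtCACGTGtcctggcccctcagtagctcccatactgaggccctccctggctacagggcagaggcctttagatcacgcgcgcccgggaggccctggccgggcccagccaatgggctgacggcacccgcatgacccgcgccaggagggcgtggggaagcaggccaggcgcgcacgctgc
Slc39a8: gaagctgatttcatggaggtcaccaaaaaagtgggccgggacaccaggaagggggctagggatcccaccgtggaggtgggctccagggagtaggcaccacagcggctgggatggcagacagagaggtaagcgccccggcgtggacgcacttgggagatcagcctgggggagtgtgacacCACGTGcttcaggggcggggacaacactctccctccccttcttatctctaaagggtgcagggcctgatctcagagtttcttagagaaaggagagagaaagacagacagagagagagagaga
Slc12a7: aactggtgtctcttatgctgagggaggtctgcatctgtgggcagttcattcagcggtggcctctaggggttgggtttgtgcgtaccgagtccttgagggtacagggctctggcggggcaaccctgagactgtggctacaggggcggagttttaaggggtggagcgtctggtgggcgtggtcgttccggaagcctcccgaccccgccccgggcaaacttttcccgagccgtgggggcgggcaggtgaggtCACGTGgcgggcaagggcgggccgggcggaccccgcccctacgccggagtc
Slc36a1: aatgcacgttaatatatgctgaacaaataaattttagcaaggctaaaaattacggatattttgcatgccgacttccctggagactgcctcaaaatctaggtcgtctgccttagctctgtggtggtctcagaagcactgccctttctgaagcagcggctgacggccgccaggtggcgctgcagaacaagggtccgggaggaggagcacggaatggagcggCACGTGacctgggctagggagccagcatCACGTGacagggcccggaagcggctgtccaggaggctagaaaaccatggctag

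The motif begins 125 bases before the start in Slc25a13, 71 bases in Slc39a8, 1 base in Slc12a7, and 31 and 3 bases in Slc36a1. A promoter was on record for 105 of the 138 members. Of these, 19 held CACGTG (18.1%), against 8.09% of 27025 genes and 7.15% of 32851 windows of the same length. The members were chosen by a mean of at least 2 CPM, while those genes and windows were not chosen by level. The sets are therefore unlike, and the difference in share shows no trait of SLC genes. By call in Teff1 against Tn, the motif stood in 6 of 29 members that were higher (20.7%), 7 of 29 that were lower (24.1%) and 6 of 47 not called (12.8%). The stress-response motif TGATGCAA, searched on both strands like the palindrome, stood in 1 of 105 members (Slc50a1) and in 1.03% of all genes. These matches describe letters in a window and not bound sites.

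The sodium-coupled carriers of families Slc5 and Slc6 held some of the largest differences: of 5 members, 3 rose (60%), 1 fell (20%) and 1 did not pass in Teff1 against Tn (24.5% of all genes rose and 24.5% fell), with a median log2 fold change of 0.93 (-0.06 over all genes). Slc6a9 (chr4:117835258-117869305), which encodes the glycine transporter GlyT1, stood at 62.7, 52.2 and 15 CPM in Teff1 and at 0.331, 0.272 and 0.484 CPM in Tn. The naive values lay close to the level of 3 counts, and the lowest Teff1 library was far above the highest Tn library. The log2 fold change was 6.85 (SE 0.63; edgeR adjusted p = 1.39e-05). At day 5 the gene remained at 34.5, 18.1 and 41 CPM in Tex and 29.7, 19.5 and 31 CPM in Teff2. Slc5a3, the sodium/myo-inositol cotransporter that imports an osmolyte, stood at 68.7, 69.4 and 51.4 CPM in Teff1 and 20, 23.2 and 17.4 CPM in Tn, a log2 fold change of 1.65 (SE 0.19; edgeR adjusted p = 5.33e-05). Slc6a6, the taurine transporter, stood at 142, 275 and 296 CPM in Teff1 and at 124, 135 and 116 CPM in Tn, with no overlap and an edgeR adjusted p of 0.0079. For both osmolyte carriers the activated libraries were all above the naive ones.

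In the other direction, Slc6a19 (chr13:73679745-73700780), which encodes the neutral amino acid transporter B0AT1 best known from kidney and intestine, had 7.28, 5.7 and 4 CPM in Teff1, against 65.4, 122 and 77.6 CPM in Tn. Every naive library lay well above every activated one, and the log2 fold change was -3.96 (SE 0.33; edgeR adjusted p = 9.40e-06). Slc6a19 stayed low at day 5, at 3.9, 4.27 and 3.12 CPM in Tex and 5.92, 4.39 and 8.06 CPM in Teff2. Over the 12 libraries, the genes of the whole table whose log2 CPM was most like that of Slc6a19 were Card6 (Pearson's r = 0.987), Ddx6 (0.987) and Skap1 (0.986); the naive libraries form 1 cluster and the activated ones another, and this split alone gives a high r.

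Slc12a7 (chr13:73733052-73816754), which encodes the potassium-chloride cotransporter KCC4, is the neighbour of Slc6a19 at a gap of 32.3 kb, with Slc6a19os, an antisense gene of Slc6a19, between them. It stood at 70.6, 60.3 and 46.8 CPM in Teff1 and at 603, 729 and 644 CPM in Tn. The states did not overlap, and the log2 fold change was -3.47 (SE 0.43; edgeR adjusted p = 9.60e-05). Both neighbours fell. The antisense gene, held under the older symbol 5430425J12Rik, averaged 0.0159 ± 0.0275 CPM in Teff1 and 0.629 ± 0.225 CPM in Tn (mean ± SD, n = 3 each). It lies at chr13:73699955-73709850 and overlaps part of Slc6a19. The counting is not stated to use strand, so reads of these genes within the overlap cannot be told apart. Slc6a18, on the other side of Slc6a19, averaged 0.234 CPM in Tn, near the level of 3 counts.

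Of 24 members classed with carriers of ions, 4 rose (16.7%), 12 fell (50%) and 8 did not pass in Teff1 against Tn. Over all genes 24.5% were called each way, and the median log2 fold change was -0.61 for the class and -0.06 for all genes. Slc9a3r1 and Slc4a1ap, which are not transporters, are among the 24, and Slc9a3r1 is among the 12 falls. Slc4a1, whose fall was fixed by the choice of members, is also among the 12. Cation-chloride cotransporters, which set cell volume and internal chloride, moved in both directions. Where Slc12a7 fell, Slc12a4 (KCC1), which carries the same ions, rose, with 52.9, 75.9 and 66 CPM in Teff1 and 27.6, 27 and 30.5 CPM in Tn (log2 fold change 1.19, SE 0.17; edgeR adjusted p = 2.30e-04). The sodium-potassium-chloride importer Slc12a2 (NKCC1) averaged 43.7 ± 4.86 CPM in Teff1 and 25.2 ± 1.74 CPM in Tn (mean ± SD, n = 3 each; edgeR adjusted p = 0.00151). Slc12a9, a member of the family with no settled substrate, averaged 13.9 ± 2.13 CPM in Teff1 and 32.7 ± 6.54 CPM in Tn (mean ± SD, n = 3 each; edgeR adjusted p = 0.00184). Of 7 genes listed for the sodium gradient and for chloride control, 2 were higher in Teff1 and 2 lower (24.5% each way over all genes). The higher ones were the kinases Oxsr1 and Stk39, and the lower ones the sodium-potassium pump subunits Atp1b1 and Atp1b3. Stk39 (SPAK), known to control the Slc12 family, averaged 180 ± 45.9 CPM in Teff1 and 12.1 ± 4.68 CPM in Tn (mean ± SD, n = 3 each; edgeR adjusted p = 5.84e-05).

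Sodium-proton exchangers, which export acid from the cytosol or adjust the pH of endosomes and Golgi, also moved apart. Slc9a5 (NHE5, chr8:105348156-105369881), best known from brain, stood at 28.8, 51.3 and 42.4 CPM in Teff1 and at 1.72, 1.57 and 4.3 CPM in Tn. All activated libraries, those of day 5 included, were above all naive ones, and the log2 fold change in Teff1 was 3.99 (SE 0.43; edgeR adjusted p = 3.52e-05). The exchanger of Golgi membranes Slc9a7 averaged 2.12 ± 0.936 CPM in Teff1 and 11.2 ± 5.7 CPM in Tn (mean ± SD, n = 3 each; edgeR adjusted p = 0.0221). The endosomal exchanger Slc9a9 had 19.6, 11.8 and 3.7 CPM in Teff1 and 26.2, 35.3 and 36.7 CPM in Tn (edgeR adjusted p = 0.0416), while Slc9a8 did not pass.

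Of 4 members of the anion exchanger family Slc26, 3 were lower in Teff1 than in Tn, beside 24.5% of all genes. Slc26a2 did not pass (edgeR adjusted p = 0.0568). Slc26a11 (chr11:119355509-119381076), a sulfate transporter with chloride channel activity, had 6.57, 8.55 and 7.15 CPM in Teff1 and 48.3, 44.3 and 52.8 CPM in Tn. Its libraries varied little within each state, and its log2 fold change of -2.71 (SE 0.20) had the smallest p among the named members (edgeR adjusted p = 4.96e-06). The most similar genes of the whole table over the 12 libraries were Cep164 (r = 0.994), Fam149b (0.994) and Als2cl (0.993). Slc26a6 averaged 5.85 ± 0.478 CPM in Teff1 and 11.6 ± 2.01 CPM in Tn (mean ± SD, n = 3 each; edgeR adjusted p = 0.0284). Slc26a10 stood at 20.5, 24.7 and 24.2 CPM in Teff1 and 147, 38.7 and 47.9 CPM in Tn, so its size rests largely on Tn replicate 1 (log2 fold change -1.75, SE 0.43; edgeR adjusted p = 0.00534).

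Slc4a1 encodes band 3, the anion exchanger of red blood cells. It had 0.143, 0 and 0.303 CPM in Teff1 and 17, 10 and 5.16 CPM in Tn. The 3 Teff1 libraries held 8 counts together, the Tex libraries 1 and the Teff2 libraries 3, against 499 in the 3 Tn libraries. It is the 1 member that reached the threshold of 2 CPM only through its highest state, Tn. Its lower level elsewhere was therefore fixed by the choice of members, and no fold is given. Slc4a1 is counted among the 38 lower members and the 12 falls of the ions class. The 6 erythroid markers summed to 0.594 to 7.63 CPM in activated libraries and to 159, 148 and 69.8 CPM in Tn replicates 1, 2 and 3; their part in the difference of Slc4a1 was not tested.

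**Figure D2:**
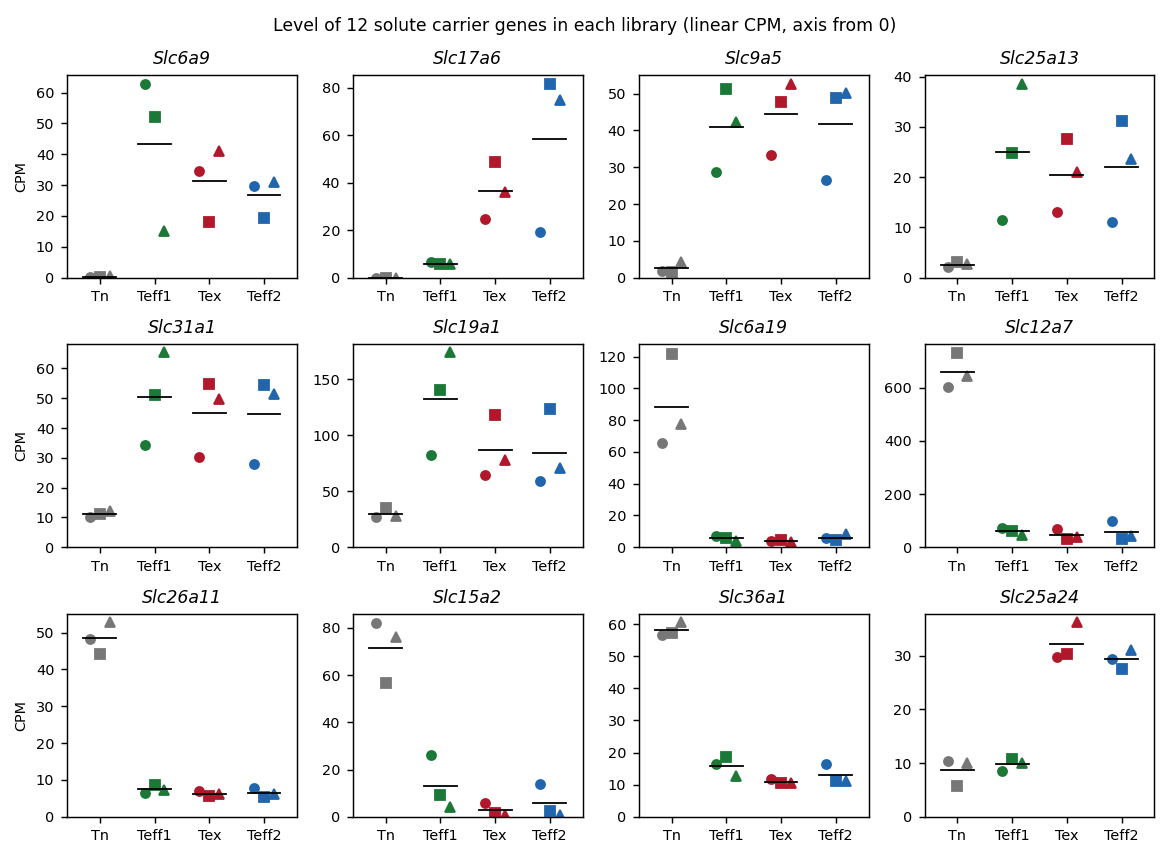
Level of 12 members in each library, in CPM on a linear axis from 0, for Tn, Teff1, Tex and Teff2; circles, squares and triangles are replicates 1, 2 and 3 and bars are state means. Slc6a9, Slc9a5, Slc25a13, Slc31a1 and Slc19a1 stand above Tn in every activated library, Slc6a19, Slc12a7, Slc26a11, Slc15a2 and Slc36a1 stand below it, and Slc17a6 and Slc25a24 are higher at day 5 than at day 2.

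Carriers of phosphate and organic anions had 1 rise (11.1%) and 5 falls (55.6%) among 9 members in Teff1 against Tn (24.5% each way over all genes), with a median log2 fold change of -0.51. The rise was that of Slc17a6 (chr7:51621830-51671126), which encodes VGLUT2, the glutamate carrier of synaptic vesicles. It stood at 6.42, 5.56 and 5.58 CPM in Teff1 and at 0 counts in all 3 Tn libraries. Taking 3 counts per naive library as the floor (0.188 CPM on average), the Teff1 level was at least 31.1-fold higher (edgeR adjusted p = 1.38e-04 for the fitted difference). Slc17a9 (VNUT), which loads ATP into vesicles, fell to 37.5, 67.8 and 51.7 CPM in Teff1, against 99.5, 150 and 155 CPM in Tn (log2 fold change -1.36, SE 0.32; edgeR adjusted p = 0.00418). Sialin (Slc17a5), the sialic acid exporter of lysosomes, averaged 6.41 ± 0.874 CPM in Teff1 and 12.9 ± 2.67 CPM in Tn (mean ± SD, n = 3 each; edgeR adjusted p = 0.0183). The phosphate importer Slc20a1 (PiT1) averaged 134 ± 11.4 CPM in Teff1 and 191 ± 6.88 CPM in Tn (mean ± SD, n = 3 each; edgeR adjusted p = 0.0194). Slc37a2, a sugar-phosphate exchanger of the ER, had 1.19, 1.85 and 1.46 CPM in Teff1 and 9.48, 5.18 and 12.6 CPM in Tn (log2 fold change -2.59, SE 0.72; edgeR adjusted p = 0.0111).

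Mitochondrial carriers (family Slc25), which exchange metabolites across the inner membrane, were the class with the most members. Of 35, 10 rose (28.6%), 6 fell (17.1%) and 19 did not pass in Teff1 against Tn (24.5% each way over all genes), with a median log2 fold change of 0.10 (-0.06 over all genes). Slc25a13 (citrin, chr6:6041218-6217304), the aspartate-glutamate carrier of the malate-aspartate shuttle, had 11.4, 24.9 and 38.6 CPM in Teff1 and 2.05, 3.06 and 2.63 CPM in Tn. The states did not overlap, and the log2 fold change was 3.27 (SE 0.51; edgeR adjusted p = 3.58e-04). Slc25a12 (aralar), the other carrier of that type, averaged 75.5 ± 6.67 CPM in Teff1 and 64.3 ± 8.05 CPM in Tn (mean ± SD, n = 3 each) and did not pass (edgeR adjusted p = 0.23).

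Carriers of adenine nucleotides and phosphate, some of which feed ATP synthase and export ATP, moved in both directions: Slc25a3, Slc25a4 and Slc25a5 rose, Slc25a23 fell (log2 fold change -1.12; edgeR adjusted p = 0.00169), and Slc25a24 and Slc25a25 did not pass (edgeR adjusted p = 0.566 and 0.859). Slc25a5 (ANT2) had 655, 775 and 1208 CPM in Teff1 and 259, 319 and 259 CPM in Tn (log2 fold change 1.66, SE 0.36; edgeR adjusted p = 0.00264), or 1.45 and no longer called with Tn replicate 2 alone. Processed copies of this gene are known in the genome, and the counting settings are not given, so its counts are uncertain. Slc25a4 (ANT1) averaged 247 ± 61.3 CPM in Teff1 and 139 ± 19.4 CPM in Tn (mean ± SD, n = 3 each; edgeR adjusted p = 0.00302). The phosphate carrier Slc25a3 averaged 620 ± 63.4 CPM in Teff1 and 471 ± 51.2 CPM in Tn (mean ± SD, n = 3 each; edgeR adjusted p = 0.0305). Slc25a39, a carrier required for glutathione import, had 70.7, 79.9 and 99.2 CPM in Teff1 and 33.2, 36.8 and 29.9 CPM in Tn, with no overlap (edgeR adjusted p = 1.08e-04). The citrate carrier Slc25a1 had 15.8, 55.9 and 66.5 CPM in Teff1 and 17.2, 18.3 and 19 CPM in Tn. Its replicate 1 of Teff1 lay below every naive library, although the gene passed the test (log2 fold change 1.34, SE 0.47; edgeR adjusted p = 0.0318). The other rises were Slc25a15 (ornithine), Slc25a17 (peroxisomal cofactors), Slc25a32 (folate and FAD) and Slc25a33 (pyrimidine nucleotides).

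The 6 mitochondrial falls were Slc25a23, Slc25a27, Slc25a29, Slc25a38, Slc25a44 and Slc25a45. Slc25a45 had 14.1, 7.7 and 7.58 CPM in Teff1 and 35.1, 49.3 and 47.1 CPM in Tn (log2 fold change -2.16, SE 0.38; edgeR adjusted p = 7.45e-04). Slc25a27, named uncoupling protein UCP4, had 5.19, 4.71 and 2.85 CPM in Teff1 and 17, 17.4 and 16.6 CPM in Tn (log2 fold change -1.99, SE 0.34; edgeR adjusted p = 6.79e-04). The glycine carrier of heme synthesis, Slc25a38, and the branched-chain amino acid carrier Slc25a44 fell by less, with log2 fold changes of -0.42 and -0.36. Of 7 partner genes of the inner and outer membrane, 3 were higher in Teff1 than in Tn and 0 lower (24.5% each way over all genes). The 3 were Mcu, held under the older symbol Ccdc109a, Mtch1 and Mtch2. Mcu, the calcium uniporter, averaged 44.4 ± 9.82 CPM in Teff1 and 15.8 ± 1.47 CPM in Tn (mean ± SD, n = 3 each; edgeR adjusted p = 0.00113). Its counterpart among the members, the sodium-calcium exchanger of mitochondria Slc24a6 (now Slc8b1), averaged 6.41 ± 2.58 CPM in Teff1 and 17.9 ± 3.84 CPM in Tn (mean ± SD, n = 3 each; edgeR adjusted p = 0.00241).

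Zinc carriers come in families of opposite direction: Slc39 (ZIP) proteins bring zinc into the cytosol and Slc30 (ZnT) proteins remove it. Of 16 members, 6 rose (37.5%), 2 fell (12.5%) and 8 did not pass in Teff1 against Tn (24.5% each way over all genes), with a median log2 fold change of 0.23 (-0.06 over all genes). Of the 6 rises, 4 were importers, Slc39a1, Slc39a4, Slc39a6 and Slc39a8, and both falls were exporters. Slc39a8 (ZIP8) had 7.85, 12.5 and 14.2 CPM in Teff1 and 2.92, 4.09 and 1.99 CPM in Tn (log2 fold change 1.94, SE 0.44; edgeR adjusted p = 0.00356). Slc39a4 (ZIP4), the importer best known from intestine, had 11.3, 18.1 and 14.6 CPM in Teff1 and 3.84, 7.35 and 5.75 CPM in Tn (log2 fold change 1.38, SE 0.27; edgeR adjusted p = 0.00139). Both importers stood above Tn in every Teff1 library, and with Tn replicate 2 alone their log2 fold changes were 1.47 for Slc39a8 and 0.98 for Slc39a4, no longer called.

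Among the exporters, Slc30a1 (ZnT1), the exporter of the cell surface, had 20, 7.56 and 9.28 CPM in Teff1 and 23.5, 27.5 and 26.5 CPM in Tn. Replicate 1 of Teff1 stayed near the naive level, and the log2 fold change was -1.07 (SE 0.32; edgeR adjusted p = 0.0164), or -0.80 and -0.89, no longer called, without Teff1 replicate 2 or 3. The Golgi exporter Slc30a7 fell to 55.5, 59.1 and 49 CPM in Teff1, against 80.1, 91 and 79.5 CPM in Tn (log2 fold change -0.61, SE 0.14; edgeR adjusted p = 0.00335). Slc30a4, an exporter of vesicles and endosomes, rose to 80.1, 64.9 and 69.4 CPM in Teff1, against 33.2, 32.2 and 23 CPM in Tn (log2 fold change 1.28, SE 0.19; edgeR adjusted p = 3.15e-04). Slc39a10 (ZIP10) differed more between replicates than between states: it had 18.8, 149 and 101 CPM in Teff1 and 29.6, 31.5 and 24.7 CPM in Tn, and replicate 1 was also the low library in Tex and Teff2 (26.7 and 16.3 CPM). It did not pass (edgeR adjusted p = 0.104).

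Metallothioneins, the zinc-binding proteins that MTF1 is known to induce when cytosolic zinc rises, were measured beside these carriers. Of the 3 genes listed, 2, Mt1 and Mt2, were higher in Teff1 than in Tn, beside 24.5% of all genes. Mt1 stood at 31.4, 0.76 and 13.9 CPM in Teff1, at 97.8, 193 and 71.1 CPM in Tex, at 47, 126 and 54 CPM in Teff2 and at 1.52, 0.885 and 0.752 CPM in Tn. All 6 day 5 libraries were above all others, while Teff1 replicate 2 lay at the naive level (log2 fold change 3.87 in Teff1 and 6.17 in Teff2 over Tn; edgeR adjusted p = 0.00751 and 6.83e-04). Mt2 had 22.7, 0.808 and 2.18 CPM in Teff1 and 1.13, 0 and 0.161 CPM in Tn (edgeR adjusted p = 0.0119); these overlap, and the Teff1 level rests on replicate 1. At day 5 Mt2 stood at 89.7, 107 and 55.8 CPM in Tex and 43.8, 78 and 38.3 CPM in Teff2. Mtf1 averaged 34.9 ± 3.55 CPM in Teff1 and 39.8 ± 3.9 CPM in Tn (mean ± SD, n = 3 each) and did not pass (edgeR adjusted p = 0.388).

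**Figure D3:**
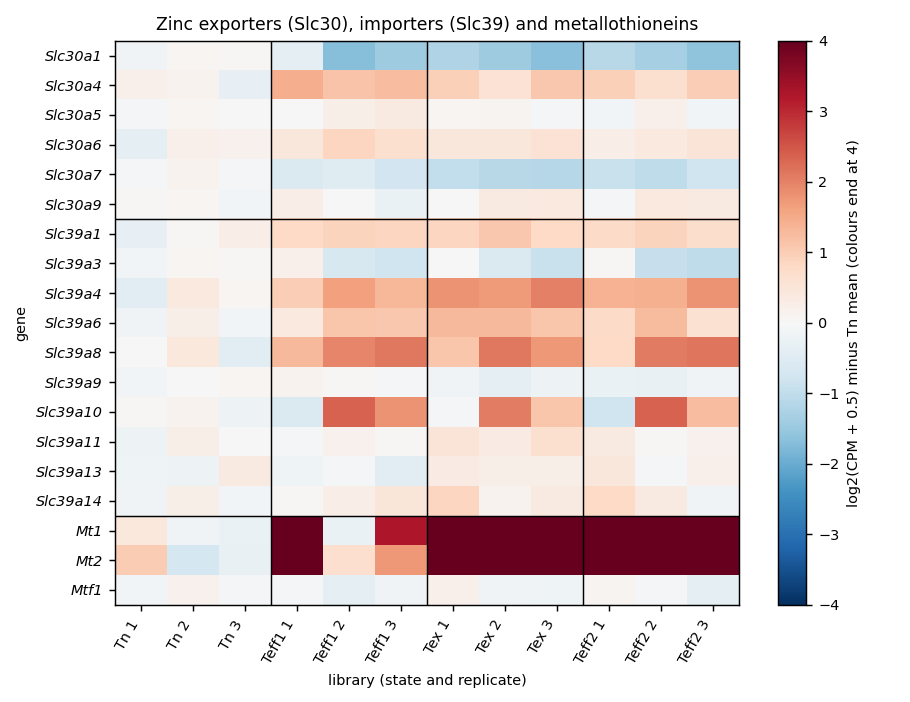
Zinc exporters (Slc30), importers (Slc39) and the metallothionein genes with Mtf1 (y axis) in each of the 12 libraries (x axis). Colour gives log2(CPM + 0.5) minus the mean of the 3 Tn libraries, red above and blue below; Slc30a1 and Slc30a7 are blue and Slc39a4 and Slc39a8 red in most activated columns, and Slc39a10 is near or below Tn in replicate 1 of each activated state.

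Of 9 carriers of vitamins, cofactors and copper, 3 rose (33.3%) and 2 fell (22.2%) in Teff1 against Tn, beside 24.5% each way over all genes (median log2 fold change -0.36). Slc31a1 (CTR1, chr4:62360583-62391769), the main copper importer, had 34.4, 51.2 and 65.4 CPM in Teff1 and 10.2, 11 and 12.2 CPM in Tn. The states did not overlap, with a log2 fold change of 2.17 (SE 0.32; edgeR adjusted p = 2.58e-04). Its relative Slc31a2 (CTR2), known for copper handling in endosomes, lies 62.2 kb away on the same chromosome with Fkbp15 between them, and moved the other way, with 7.23, 4.56 and 3.27 CPM in Teff1 and 8.15, 10.8 and 11.1 CPM in Tn. That difference passed narrowly (edgeR adjusted p = 0.0449) and was not called without any 1 of 5 of the 6 libraries, where the log2 fold change stood at -0.75 to -1.12. Slc19a1, the reduced folate carrier, had 82.4, 140 and 174 CPM in Teff1 and 27, 34.7 and 28 CPM in Tn (log2 fold change 2.14, SE 0.34; edgeR adjusted p = 4.42e-04). The thiamine carrier Slc19a2 averaged 20.8 ± 0.996 CPM in Teff1 and 8.43 ± 2.25 CPM in Tn (mean ± SD, n = 3 each; edgeR adjusted p = 0.0113). Slc46a3, a lysosomal carrier, fell to 4.95, 4.56 and 1.82 CPM in Teff1, against 17.9, 13.9 and 21.9 CPM in Tn (log2 fold change -2.24, SE 0.44; edgeR adjusted p = 0.00157).

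Nucleotide sugar carriers of family Slc35, which supply the glycosylation enzymes of Golgi and ER, had 6 rises (31.6%) and 3 falls (15.8%) among 19 members in Teff1 against Tn (24.5% each way over all genes), with a median log2 fold change of 0.37. Several members of this family have no settled natural substrate, among them those with the largest rises. Slc35d3 had 2.95, 9.46 and 8.55 CPM in Teff1 and 0.795, 0.341 and 0.269 CPM in Tn (log2 fold change 3.90, SE 0.74; edgeR adjusted p = 0.00131). It stood at 6.87, 21 and 19.8 CPM in Tex and 5.87, 19.5 and 27 CPM in Teff2, with replicate 1 low in each activated state. Slc35f2 had 49.5, 68.1 and 58.1 CPM in Teff1 and 18.6, 20.4 and 13.7 CPM in Tn (log2 fold change 1.74, SE 0.19; edgeR adjusted p = 4.06e-05). Among members with a known substrate, Slc35b2, which carries the sulfate donor PAPS, averaged 41.8 ± 5.26 CPM in Teff1 and 30.5 ± 1.51 CPM in Tn (mean ± SD, n = 3 each; edgeR adjusted p = 0.0341), and Slc35d1 averaged 25.4 ± 5.01 CPM in Teff1 and 16.4 ± 1.65 CPM in Tn (mean ± SD, n = 3 each; edgeR adjusted p = 0.0173). Slc35d2 fell to 6.14, 5.09 and 3.33 CPM in Teff1, against 13.9, 11.6 and 15.4 CPM in Tn (log2 fold change -1.48, SE 0.35; edgeR adjusted p = 0.00448). Slc35a5 fell to 14.9, 9.7 and 7.76 CPM in Teff1, against 18.2, 23.8 and 19.9 CPM in Tn (edgeR adjusted p = 0.0288).

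Among 5 carriers of peptides and proton-coupled amino acids, 1 rose (20%) and 2 fell (40%) in Teff1 against Tn (24.5% each way over all genes), and the paralogs Slc36a1 and Slc36a4, both amino acid carriers linked to mTORC1 growth signalling, moved apart. Slc36a1 (PAT1) had 16.4, 18.6 and 12.6 CPM in Teff1 and 56.7, 57.2 and 60.8 CPM in Tn (log2 fold change -1.88, SE 0.20; edgeR adjusted p = 4.06e-05). Slc36a4 (PAT4) had 18.3, 25.7 and 24.7 CPM in Teff1 and 11.1, 13.6 and 11.4 CPM in Tn (log2 fold change 0.93, SE 0.26; edgeR adjusted p = 0.0118). The peptide importer Slc15a2 (PEPT2) had 26.2, 9.13 and 4 CPM in Teff1 and 82, 56.7 and 76.2 CPM in Tn. Its spread within Teff1 was wide, and its call (log2 fold change -2.44, SE 0.92; edgeR adjusted p = 0.0442) was lost without any 1 of 5 of the 6 libraries, where the log2 fold change stood at -2.0 to -2.60.

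Lipid and choline carriers had 1 rise (12.5%) and 2 falls (25%) among 8 members, and organic cation, nucleoside and other carriers 1 rise (12.5%) and 3 falls (37.5%) among 8, in Teff1 against Tn, beside 24.5% each way over all genes (median log2 fold changes -0.19 and -0.63). Slc33a1, which imports acetyl-CoA into the ER, had 18.7, 18.4 and 17.3 CPM in Teff1 and 5.83, 10.2 and 9.24 CPM in Tn (log2 fold change 1.11, SE 0.22; edgeR adjusted p = 0.00165). Slc44a2, a choline carrier, fell to 189, 361 and 276 CPM in Teff1, against 424, 514 and 498 CPM in Tn (log2 fold change -0.80, SE 0.20; edgeR adjusted p = 0.00666), and the fatty acid carrier Slc27a4 to 15.2, 15.9 and 14.9 CPM, against 21.3, 25.3 and 21.1 CPM in Tn (edgeR adjusted p = 0.0186). The concentrative nucleoside carrier Slc28a2 had 73.9, 68.6 and 41.8 CPM in Teff1 and 206, 238 and 256 CPM in Tn (log2 fold change -1.92, SE 0.29; edgeR adjusted p = 3.14e-04). Its close copy Slc28a2b, held as Gm14085 and no member by symbol, averaged 8.49 ± 0.549 CPM in Teff1 and 221 ± 30.2 CPM in Tn (mean ± SD, n = 3 each), so how reads were shared between these copies is uncertain. Slc22a17, a receptor for lipocalin-2, had 1.52, 2.33 and 1.27 CPM in Teff1 and 4.97, 5.86 and 7.26 CPM in Tn (log2 fold change -1.81, SE 0.49; edgeR adjusted p = 0.00949), and the sugar carrier Slc50a1 averaged 45.5 ± 4.91 CPM in Teff1 and 92.5 ± 12.6 CPM in Tn (mean ± SD, n = 3 each; edgeR adjusted p = 0.00396).

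Between day 2 and day 5 few SLC genes differed. In Teff2 against Teff1, 2 members were higher (1.45%) and 0 lower, where 0.558% of all genes were called higher and 0.112% lower (quasi-likelihood test of edgeR, adjusted by Benjamini-Hochberg). At an unadjusted p under 0.05 there were 10 higher and 6 lower members, and DESeq2 called 5 higher and 1 lower. The shares of all genes at these 2 cuts are not given here, so these counts show no lean of the members. Slc17a6 had 19.1, 81.4 and 74.8 CPM in Teff2 and 6.42, 5.56 and 5.58 CPM in Teff1, a log2 fold change of 3.32 (SE 0.50; edgeR adjusted p = 0.0233). The states did not overlap, and replicate 1 of Teff2 was far below the other 2. Slc25a24 (chr3:109123149-109168409), a calcium-dependent carrier of ATP-Mg and phosphate, had 29.3, 27.6 and 31.1 CPM in Teff2 and 8.52, 10.8 and 10 CPM in Teff1 (log2 fold change 1.59, SE 0.23; edgeR adjusted p = 0.00906). Its naive level of 10.4, 5.72 and 10 CPM overlapped that of Teff1, and Tex stood at 29.8, 30.3 and 36.3 CPM. Either call depended on the libraries kept: without Teff1 replicate 3 or without Teff2 replicate 3 no member was called higher, although the log2 fold changes stayed at 3.10 to 3.39 for Slc17a6 and 1.54 to 1.60 for Slc25a24 in the fits that lost the call.

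A few other members stood higher at day 5 without passing that test. Slc15a3, a histidine and peptide carrier of lysosomes, had 6.17, 10.2 and 14.2 CPM in Teff2 and 1.76, 1.81 and 1.27 CPM in Teff1, with no overlap (log2 fold change 2.65, SE 0.55; edgeR adjusted p = 0.0542), and it was among the 5 that DESeq2 called, with Slc22a15 and Slc4a11. Slc4a11, a proton-conducting member of family Slc4, had 9.44, 13.3 and 14.2 CPM in Teff2 and 1.14, 6.04 and 2.36 CPM in Teff1 (edgeR adjusted p = 0.144). Slc22a15 had 11.4, 9.03 and 11.7 CPM in Teff2 and 5.71, 4.42 and 4.12 CPM in Teff1 (edgeR adjusted p = 0.166). In the other direction Slc35f2 had 32.2, 36.4 and 34.2 CPM in Teff2 and 49.5, 68.1 and 58.1 CPM in Teff1 (edgeR adjusted p = 0.0873), and DESeq2 called it lower.

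In Teff2 against Tn, 36 members were higher (26.1%) and 38 lower (27.5%), against 25.6% and 23.3% of all genes, with a median log2 fold change of -0.07 for the members and 0.00 for all genes (quasi-likelihood test of edgeR, adjusted by Benjamini-Hochberg). The comparison shares its Tn libraries with that of Teff1 against Tn. With Tn replicate 2 as the only naive library, again assumed to vary like the other states, 20 members were called higher and 22 lower, all of them among the 36 and 38. The log2 fold change over Tn of Slc6a9 was 6.15 in Teff2, beside 6.85 in Teff1. For Slc9a5 it was 4.03 in Teff2 and 3.99 in Teff1, and for Slc25a13 3.08 in Teff2 and 3.27 in Teff1. The folate carrier Slc19a1 stood at 1.49 in Teff2 and 2.14 in Teff1. Among the falls, Slc6a19 stood at -3.85 in Teff2 and -3.96 in Teff1, and Slc12a7 at -3.55 in Teff2 and -3.47 in Teff1. The values of Slc26a11 were -2.90 in Teff2 and -2.71 in Teff1, and those of Slc36a1 -2.16 in Teff2 and -1.88 in Teff1. Slc17a6 was at least 311-fold higher in Teff2 than the naive floor.

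Some members were called on 1 of the days only, which does not show that the days differ. The 6 members called higher in Teff1 but not in Teff2 against Tn were Slc25a3, Slc25a15, Slc25a32, Slc30a6, Slc35a4 and Slc35e1. The 9 called lower in Teff1 but not in Teff2 were Slc17a5, Slc20a1, Slc22a17, Slc26a10, Slc27a4, Slc31a2, Slc35a5, Slc35d2 and Slc37a2. Called at day 5 but not at day 2 were 6 higher members, Slc4a7, Slc15a3, Slc25a24, Slc35a1, Slc35f5 and Slc48a1, and 9 lower ones. Slc4a7, a sodium-bicarbonate importer that raises cell pH, had 58, 141 and 117 CPM in Teff2 and 47.5, 36.5 and 47.8 CPM in Tn (log2 fold change 1.26, SE 0.33; edgeR adjusted p = 0.00818). Slc23a2, a vitamin C importer, fell to 39.8, 36.2 and 49.8 CPM in Teff2, against 74.9, 71.4 and 65.7 CPM in Tn (log2 fold change -0.75, SE 0.18; edgeR adjusted p = 0.00534). Slc14a1, the urea transporter UT-B, had 8.73, 22.4 and 10.1 CPM in Teff2, 21.1, 45.1 and 28.6 CPM in Teff1 and 45.5, 57.7 and 55.5 CPM in Tn, with a log2 fold change of -1.95 (SE 0.47; edgeR adjusted p = 0.00496) in Teff2 over Tn. In all, 49 of the 138 members were called in none of the comparisons among Tn, Teff1 and Teff2. Among them were the mitochondrial carriers Slc25a11, Slc25a20 and Slc25a22 and the zinc carriers Slc30a5 and Slc30a9. The shares of all genes called on 1 day only, or in none of these comparisons, are not given here. These counts therefore describe the members and show no trait of SLC genes.

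Between the TIM-3 sorted fractions of day 5, few SLC genes passed a test. In Tex against Teff2 the fit over 12 libraries called 0 members higher and 0 lower, with 0.00698% and 0% of all genes called (quasi-likelihood test of edgeR, adjusted by Benjamini-Hochberg); DESeq2 also called 0 and 0. At an unadjusted p under 0.05 there were 0 higher and 2 lower, Slc25a23 and Slc6a19, and the share of all genes at that cut is not given here. Libraries of Tex and Teff2 with the same replicate number deviated together, so they were also fitted as 3 pairs. In that fit over 13096 genes, 0.962% of genes were called higher in Tex and 0.725% lower, and of 137 members tested 1 was higher and 1 lower (0.73% each), shares near the background; Slc4a1 was not tested.

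The member higher in Tex was Slc37a2, the sugar-phosphate exchanger of the ER, with 5.33, 9.13 and 31 CPM in Tex and 3.67, 2.9 and 12.8 CPM in Teff2. The states overlapped, but each Tex library was above the Teff2 library of its number (within-pair log2 fold change 1.16, SE 0.19; edgeR adjusted p = 0.0241). The member lower in Tex was Slc14a1, with 3.63, 12.5 and 5.46 CPM in Tex and 8.73, 22.4 and 10.1 CPM in Teff2, each Tex library below its partner (within-pair log2 fold change -0.98, SE 0.14; edgeR adjusted p = 0.016). Slc25a23, an ATP-Mg and phosphate carrier of mitochondria and a relative of Slc25a24, had 5.33, 6.8 and 7.75 CPM in Tex and 14.5, 10.1 and 12.1 CPM in Teff2. These did not overlap, and the adjusted p was 0.0548 within pairs (log2 fold change -0.89, SE 0.19; edgeR). Without pair 3 the within-pair fit called no member, with log2 fold changes of 1.08 for Slc37a2 and -1.03 for Slc14a1; without pair 1 it called 1 higher and 3 lower, and without pair 2 it called 2 higher and 5 lower.

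Among members that had moved strongly on activation, some stood lower and others higher in Tex in every pair without passing the adjusted threshold. Within pairs, 11 members were higher in Tex and 10 lower at an unadjusted p under 0.05 (edgeR), Slc37a2 and Slc14a1 included. The share of all genes at that cut is not given here. Higher in every pair were, for example, Slc9a7 (within-pair log2 fold change 0.72, SE 0.25, edgeR adjusted p = 0.193) and Slc39a4 (0.28, SE 0.11, edgeR adjusted p = 0.235). Slc6a19 had 3.9, 4.27 and 3.12 CPM in Tex and 5.92, 4.39 and 8.06 CPM in Teff2, with no overlap (within-pair log2 fold change -0.69, SE 0.25; edgeR adjusted p = 0.213). Slc28a2 had 52.8, 36.2 and 53.3 CPM in Tex and 93.2, 43.2 and 68.2 CPM in Teff2, and its libraries overlapped (within-pair log2 fold change -0.49, SE 0.11; edgeR adjusted p = 0.0703). Its copy Gm14085 was lower in Tex, with 3.46, 0.432 and 0.624 CPM in Tex and 18, 1.81 and 2.9 CPM in Teff2 (within-pair log2 fold change -2.28, SE 0.22; edgeR adjusted p = 0.00259). Slc17a6 had 24.6, 48.5 and 35.9 CPM in Tex and 19.1, 81.4 and 74.8 CPM in Teff2, higher in Tex in 1 pair and lower in 2 (edgeR adjusted p = 0.262 within pairs). The zinc-binding Mt1 and Mt2 were higher in Tex within pairs, by log2 fold changes of 0.68 and 0.67 (edgeR adjusted p = 0.0254 for Mt1 and 0.0237 for Mt2).

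**Figure D4:**
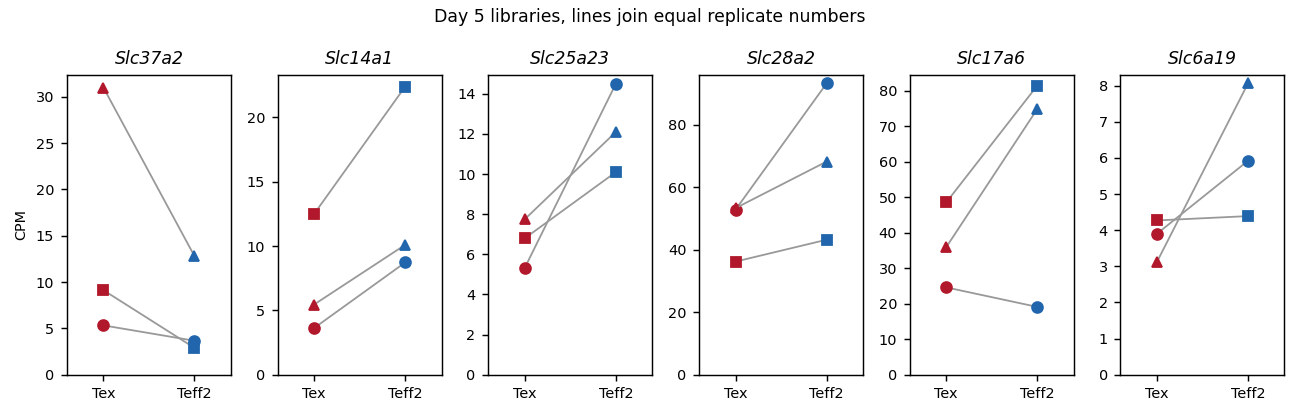
Levels of 6 members in the day 5 libraries, in CPM on a linear axis from 0, with Tex left and Teff2 right; lines join libraries with the same replicate number, shown as circles, squares and triangles for replicates 1, 2 and 3. Slc37a2 is higher in Tex in all 3 pairs, Slc14a1, Slc25a23, Slc28a2 and Slc6a19 are lower in all 3, and Slc17a6 is higher in 1 pair.

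Carriers that have an SLC number but are listed under another symbol were counted separately from a list of 21, of which 20 were tested. In Teff1 against Tn, 4 of the 20 were higher and 5 lower, near the 24.5% each way over all genes. The higher ones were Mfsd2a, Flvcr1 (held as Mfsd7b), Sfxn1 and Tmem165. Lower were Mfsd2b, Slc66a1 (held as Pqlc2), Sfxn3, Spns1 and Spns2. Mfsd2a, which carries lysophospholipids, averaged 20 ± 11.8 CPM in Teff1 and 0.986 ± 0.425 CPM in Tn (mean ± SD, n = 3 each; edgeR adjusted p = 1.79e-04). The sideroflexins moved apart: the mitochondrial serine carrier Sfxn1 averaged 119 ± 38.2 CPM in Teff1 and 39.4 ± 1.77 CPM in Tn, and Sfxn3 averaged 26.8 ± 6.36 CPM in Teff1 and 108 ± 18.3 CPM in Tn (mean ± SD, n = 3 each; edgeR adjusted p = 0.00104 and 3.51e-04).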

How the data were processed

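RNA-seq of 12 libraries, 3 per state, was read from the deposited matrix of raw counts per gene symbol. The submitters' processing notes name the assembly mm10 and the tools HISAT2, HTSeq and DESeq2 without versions or roles, and strand use is not given in the sources used here. The authors also deposited normalized values on a log2 scale, whose transformation is not stated, and these served as an alternative only. The 4 Hi-C samples were not analysed here. Members were taken by their CPM over the plain column totals; all other CPM used library sizes scaled by TMM. Tests of these counts used edgeR 4.0.16 (quasi-likelihood F test, R 4.3.3) on all 12 libraries with state as the term, after edgeR's filter by expression (14332 genes kept), and a gene was called at an adjusted p under 0.05 (Benjamini-Hochberg, over all genes tested). SE is the log2 fold change divided by the root of F. Comparisons that share a state are not independent.

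Pairing by replicate number was checked from deviations from the state means, correlated across genes. Equal numbers of Tex and Teff2 correlated at 0.85, 0.78 and 0.75 and other numbers at no more than 0.12, so those 6 libraries were also fitted as pairs (13096 genes, common dispersion 0.00941, against 0.0994 over 12 libraries). Equal numbers gave 0.14, 0.13 and 0.00 for Teff1 and Tn, 0.51, 0.24 and 0.03 for Teff2 and Teff1, and 0.01, 0.08 and 0.08 for Teff2 and Tn, and these were not treated as paired. Alternatives were other scalings (edgeR with size factors of DESeq2, upper quartile), no filter, DESeq2 1.42.0, limma 3.58.1 on the deposited log2 values, a replicate block, the compared states alone, each library left out, replicate 1 of all states left out, Tn replicate 2 alone, other member thresholds and a 2-fold minimum. Leaving out pairs was chosen after seeing the data. Coordinates and promoters are those of RefSeq (GRCm38.p6). The members, substrate classes, related genes and rules were chosen with earlier results of these data known. Genes named with full values were the 4 largest called rises and falls per comparison without overlap and at least 10 CPM, up to 2 of each per substrate class at 5 CPM, and the members called between Tex and Teff2; further members are named as examples of their class, chosen after their values were seen, and some members are not reported here by name. Floors cover counting error only.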

Additional observations from a re-analysis of the deposited data

How the results depend on the processing

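Settings of scaling, filter, tool and samples in the fit left most counts within 1.5 times of those reported, and of 712 alternative values for the named members 665 kept their direction and side of the threshold, 44 kept the direction and lost the call, 3 gained it and 0 reversed. In Teff1 against Tn, leaving out 1 library gave 28 to 38 members higher and 24 to 34 lower, Tn replicate 2 alone gave 17 and 14, and a 2-fold minimum gave 21 and 25. In Teff2 against Teff1, leaving out 1 library gave 0 to 3 higher and 0 lower, DESeq2 gave 5 and 1, and the replicate block gave 3 and 2 (the lower ones were Slc14a1 and Slc35f2), though replicate numbers do not pair these libraries. In Tex against Teff2, where they do, the replicate block within the 6 day 5 libraries gave 1 higher and 1 lower in place of 0 and 0, while leaving out 1 library or adding the block to the fit over 12 libraries gave 0 and 0. In Teff2 against Tn, leaving out 1 library gave 34 to 39 higher and 28 to 43 lower, Tn replicate 2 alone gave 20 and 22, and a 2-fold minimum gave 21 lower. Upper-quartile scaling moved the median log2 fold change of all genes to -0.20 in Teff1 and -0.11 in Teff2 over Tn. The paired analysis changed no other call than those given. The cause of these differences was not tested, beyond the fewer libraries in the fits that leave some out.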
